A study of Mus musculus with 6 samples.

Results

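Genes of brown and white adipocytes were followed in RNA-seq libraries from the atria of 6 old mice, 1 library per mouse. The 10 genes, of 54838 in the count table, were Ucp1, Elovl3, Cidea, Cidec, Plin1, Adipoq, Cfd, Retn, Lep and Pparg. They were chosen by name, with earlier results of these data known, to describe fat around the atria beside a genotype comparison. All 10 were matched by symbol, and 9 had enough counts to be tested over the 6 libraries, Elovl3 being the exception. The levels themselves are therefore given as a description, with no test.

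The series compared Prkce knockout (KO) mice with wild-type (WT) controls, where Prkce encodes protein kinase C epsilon (PKC-epsilon), a serine/threonine kinase. The labels give C57BL/6J as the WT line and JAX stock #004189 as the KO line, an average age of 20.9 ± 0.43 months for both groups, and both sexes. They do not say what kind of error 0.43 is, nor whether the groups were littermates. For 4 of the 6 libraries the genotype in the library name and the genotype field are opposite. Replicates are named here by library name. The genotype field reads the same as the name in WT replicate 1 and KO replicate 1. It reads KO in WT replicates 2 and 3 and reads WT in KO replicates 2 and 3. Names also form a pair of series, since those of both replicates 1 begin with Old and the other 4 with a number. Both groupings have 3 libraries per genotype, and both were analysed.

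Total counts ran from 11574206 in WT replicate 2 to 24138824 in WT replicate 3. Levels are in CPM, the read count scaled to library size and composition. Prkce was at 36.2, 11.7 and 30.2 CPM in WT replicates 1 to 3 and at 9.19, 5.14 and 28.6 CPM in KO replicates 1 to 3. Its levels in WT replicate 2 and KO replicate 3 went against the library name, and those in KO replicate 2 and WT replicate 3 went against the genotype field. Y-linked genes summed to about 1 CPM in WT replicates 1 and 2 (1.08 and 1.09 CPM) and to 78.8 to 146 CPM in the other 4 libraries. By library name all 3 KO libraries were among these 4, and by genotype field each group held 1 of the 2 low libraries. Atrial cardiomyocyte genes, among them Nppa and Myl4, summed to 30060 to 38030 CPM, and the labelled tissue was thus present in every library. In bulk tissue, fewer cells of a type and less RNA per cell cannot be told apart.

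White adipocytes store triglyceride in a single large droplet and secrete hormones such as leptin and adiponectin. Brown adipocytes hold many small droplets and dense mitochondria, and release energy as heat through the uncoupling protein UCP1. Both kinds lie beside the heart and the great vessels in mice, and both depend on the nuclear receptor PPARG, which pairs with RXR on direct repeats of a short hexamer.

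RefSeq promoters (GRCm38.p6) were available for 8 of the 10 genes. Cidea and Elovl3 were not matched. The 250 bases before the transcription start are shown 5′ to 3′ on the gene's strand for Ucp1, Lep and Adipoq, since these are the brown marker, the white hormone and the general adipocyte marker whose levels differed in order between libraries. Capitals mark AGGTCA, the hexamer bound by PPARG and RXR, TGACG, a core of the cyclic AMP response element, and TTGCGCAA, a C/EBP palindrome. The Ucp1 promoter lies at chr8:83290098-83290347, the Lep promoter at chr6:29059971-29060220 and the Adipoq promoter at chr16:23146286-23146535, all on the plus strand.
Ucp1: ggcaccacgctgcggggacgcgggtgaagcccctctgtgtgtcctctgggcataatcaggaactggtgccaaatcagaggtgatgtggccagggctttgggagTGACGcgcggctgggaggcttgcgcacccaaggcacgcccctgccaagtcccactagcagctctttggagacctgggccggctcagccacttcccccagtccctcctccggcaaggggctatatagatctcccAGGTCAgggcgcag
Lep: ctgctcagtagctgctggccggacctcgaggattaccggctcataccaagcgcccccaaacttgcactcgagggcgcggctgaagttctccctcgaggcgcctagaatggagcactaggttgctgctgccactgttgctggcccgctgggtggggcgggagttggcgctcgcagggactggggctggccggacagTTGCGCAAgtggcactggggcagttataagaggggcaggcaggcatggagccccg
Adipoq: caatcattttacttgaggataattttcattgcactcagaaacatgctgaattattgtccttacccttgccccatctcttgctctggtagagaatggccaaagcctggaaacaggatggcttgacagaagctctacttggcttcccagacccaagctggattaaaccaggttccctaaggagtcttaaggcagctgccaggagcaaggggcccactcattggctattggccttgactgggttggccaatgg
Searched on both strands, AGGTCA was found in the Ucp1 promoter at position -14 from the start. It was also in separate Pparg promoters, at positions -28 and -9, and in 14.0% of 32851 RefSeq promoters of the same length. TGACG was found at position -147 of Ucp1 and in 17.8% of all promoters, and TTGCGCAA at position -55 of Lep and in 0.164%. TATAAA was found in a Pparg promoter and in 12.4% of all. The spaced repeat AGGTCANAGGTCA, which contains AGGTCA, was found in none of the 8 genes and in 0.0335% of all promoters. The Adipoq window held none of the 5 motifs. These matches describe letters only.

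Among the 10 genes, the brown adipocyte markers Ucp1, Elovl3 and Cidea were highest in KO replicate 2, Cidea by a narrower margin. The wider list of brown and thermogenic genes summed to 1083 CPM in this library and to 850 to 1355 CPM in the others. Most of that sum came from Cox7a1 (638 CPM in KO replicate 2) and Cox8b (318 CPM), which are also found in heart muscle. The sum therefore cannot show whether genes of brown fat differed, and single genes of the list are given below. Ucp1 (chromosome 8, 83290352 to 83298452, GRCm38) encodes the protein that lets protons leak across the inner mitochondrial membrane. Its level was 3.53, 2.94 and 0 CPM in WT replicates 1 to 3 and 2.33, 57.4 and 1.76 CPM in KO replicates 1 to 3. KO replicate 2 was high and the other 5 libraries were low, with 792 reads against 59, 35, 41 and 36, and none in WT replicate 3. The 95% Poisson interval in KO replicate 2 was 53.4 to 61.5 CPM, and the upper limit for 0 reads in WT replicate 3 was 0.1615 CPM. KO replicate 2 was 16.2-fold above the next library, WT replicate 1, and 437-fold above the level of 3 counts in WT replicate 3. KO replicates 2 and 3 are both named KO with a genotype field of WT, and differed 32.6-fold in Ucp1.

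Elovl3, an elongase of very long chain fatty acids that is abundant in brown fat (chromosome 19, 46131897 to 46135694), was read in 2 libraries only. It had 46 reads in KO replicate 2 (3.33 CPM) and 9 in WT replicate 2 (0.756 CPM), a 4.41-fold difference, and 0 in the other 4. KO replicate 2 was at least 18.5-fold above the level of 3 counts in each library with no reads. Elovl3 did not pass the low-count filter over the 6 libraries and has no test there. In the numbered series alone it passed, with a log2 fold change by name of 2.35 (SE 2.43, edgeR adjusted p = 0.9985).

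Cidea, a lipid droplet protein that is high in brown adipocytes (chromosome 18, 67343604 to 67367785), was present in all libraries. Its level was 10.1, 22.1 and 18.6 CPM in WT replicates 1 to 3 and 17.1, 41.1 and 20.4 CPM in KO replicates 1 to 3. KO replicate 2 was again the highest, by a narrower margin, and the highest library was 4.06-fold above the lowest, WT replicate 1.

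**Figure D1:**
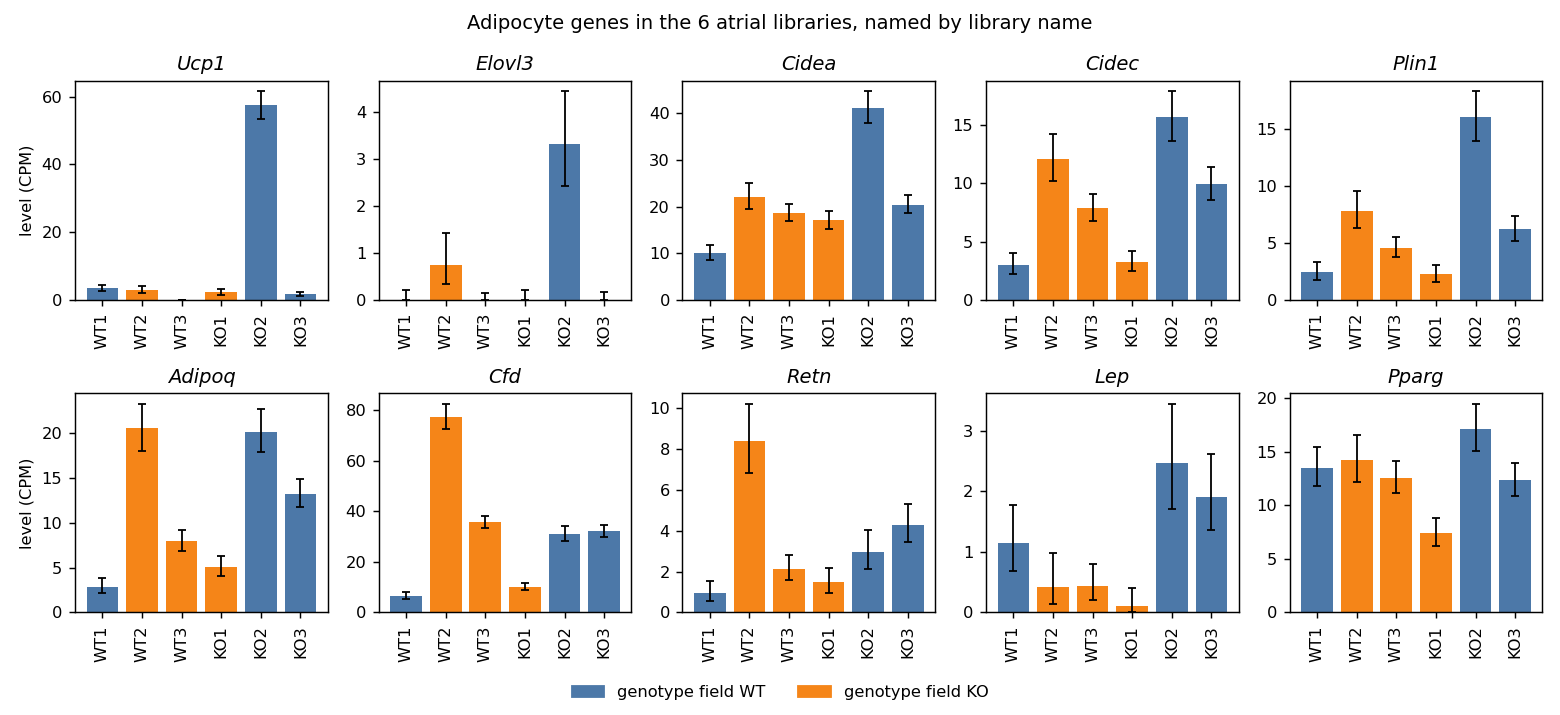
Level in CPM of each of the 10 adipocyte genes in each of the 6 libraries, named by library name and coloured by genotype field, with bars for the level and whiskers for the 95% Poisson interval of the count. Ucp1 stood at 57.4 CPM in KO replicate 2 and at or below 3.53 CPM in the other 5 libraries, while Adipoq, Cfd and Retn were highest in WT replicate 2.

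The lipid droplet genes Cidec and Plin1 varied less than Ucp1. Cidec, which promotes the fusion of droplets (chromosome 6, 113424634 to 113435760), was at 3.06, 12.1 and 7.88 CPM in WT replicates 1 to 3 and at 3.29, 15.7 and 9.92 CPM in KO replicates 1 to 3. Its libraries stood in the same order as those of Cidea, from KO replicate 2 and WT replicate 2 down to KO replicate 1 and WT replicate 1. Plin1, the perilipin that coats adipocyte droplets and restrains lipolysis (chromosome 7, 79720218 to 79732903), was at 2.46, 7.82 and 4.60 CPM in the WT replicates and at 2.27, 16.1 and 6.26 CPM in the KO replicates. The lowest libraries of both genes were WT replicate 1 and KO replicate 1, the pair whose names begin with Old. The highest library was 5.12-fold above the lowest for Cidec and 7.09-fold for Plin1.

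Of the secreted products, Adipoq, Cfd and Retn were highest in WT replicate 2. The order of Adipoq was that of Cidea and Cidec with the first 2 libraries exchanged. Adipoq encodes adiponectin, a hormone made by white and brown adipocytes (chromosome 16, 23146536 to 23158028). It was at 2.88, 20.5 and 7.97 CPM in WT replicates 1 to 3 and at 5.11, 20.1 and 13.3 CPM in KO replicates 1 to 3. WT replicate 2 and KO replicate 2 were both high, and their Poisson intervals overlapped. Ucp1 was 19.5-fold higher in KO replicate 2 than in WT replicate 2, while Adipoq was not higher.

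Cfd encodes adipsin, a complement protease secreted by fat (chromosome 10, 79890853 to 79892655). It was at 6.71, 77.2 and 35.6 CPM in the WT replicates and at 10.2, 31.0 and 32.1 CPM in the KO replicates. WT replicate 2 stood above all other libraries, and the highest library was 11.5-fold above the lowest. Retn encodes resistin, a hormone of mouse white adipocytes (chromosome 8, 3655770 to 3660110), and was at 0.958, 8.40 and 2.15 CPM in the WT replicates and 1.48, 2.97 and 4.30 CPM in the KO replicates. Here too WT replicate 2 was the highest and WT replicate 1 the lowest.

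Lep encodes leptin, the satiety hormone of white fat (chromosome 6, 29060220 to 29073877). It had 19, 5 and 10 reads in WT replicates 1 to 3 and 2, 34 and 39 reads in KO replicates 1 to 3. Its levels were 1.14, 0.420 and 0.438 CPM, and 0.114, 2.46 and 1.91 CPM. The 3 libraries whose genotype field reads WT were the highest, and WT replicate 2, which led in Adipoq, Cfd and Retn, was near the bottom. The 95% Poisson intervals of WT replicate 1 (0.685 to 1.78 CPM) and WT replicate 3 (0.210 to 0.805 CPM) overlapped, and these 2 libraries lie on either side of the gap between the groups by field.

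Pparg, the transcription factor required for adipocyte formation (chromosome 6, 115360951 to 115490399), was the steadiest of the 10 genes. It was at 13.5, 14.3 and 12.6 CPM in the WT replicates and at 7.43, 17.2 and 12.4 CPM in the KO replicates. KO replicate 1 was low and KO replicate 2 high, with 2.31-fold between them. Pparg is also made by cells other than adipocytes, and 89.8% of its gene body was free of other genes. The gene bodies of the other 9 were at least 97.9% free.

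Per kilobase of exon, mean levels over the 6 libraries (CPM per kilobase, ± SD, n = 6) ran from 34.9 ± 27.3 for Cfd and 19.3 ± 9.34 for Cidea through 8.43 ± 5.48 for Adipoq and 6.92 ± 13.8 for Ucp1 to 0.322 ± 0.279 for Lep. Cidec (4.66 ± 2.67) and Pparg (4.37 ± 1.08) lay in the middle, followed by Retn (2.14 ± 1.73), Plin1 (1.42 ± 1.10) and Elovl3 (0.345 ± 0.675). Neighbours in this order differed by less than the larger of their SDs, except Cidea from Adipoq and Pparg from Retn. The place of Ucp1 rested on KO replicate 2.

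The sum of the 10 genes was 44.4, 167 and 89.9 CPM in WT replicates 1 to 3 and 49.3, 207 and 102 CPM in KO replicates 1 to 3. Without Ucp1 the sum was 164 CPM in WT replicate 2 and 150 CPM in KO replicate 2, and the order of these 2 libraries turned. Of the 9 tested genes, 6 were highest in KO replicate 2 and 3 in WT replicate 2. Over all 14708 tested genes, 15.6% were highest in KO replicate 2 and 20.2% in WT replicate 2. The genes were proposed from these libraries, so this count is descriptive.

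The make-up of the adipocyte reads was set beside Adipoq within each library. Whether Adipoq follows the amount of adipocyte RNA was not tested. Ucp1 reads were 74.0% (exact 95% binomial interval 71.3 to 76.6) of Ucp1 and Adipoq reads together in KO replicate 2 and 55.1% (45.2 to 64.8) in WT replicate 1. The share was 31.3% (23.5 to 40.0) in KO replicate 1, 12.5% (8.90 to 17.0) in WT replicate 2 and 11.7% (8.35 to 15.9) in KO replicate 3. In WT replicate 3 it was 0 of 182 reads, with an upper limit of 2.01%. WT replicate 1 had the second highest Ucp1 share and the least Adipoq of all libraries, at 48 reads. Its ratios to Adipoq were also the highest of the 6 libraries for Cidea (3.52), Cidec (1.06), Plin1 (0.854), Lep (0.396) and Pparg (4.71). WT replicate 2 and KO replicate 2, with 244 and 278 Adipoq reads, had Ucp1 shares whose intervals did not overlap.

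Lep reads were 28.4% (18.0 to 40.7) of Lep and Adipoq reads in WT replicate 1, 10.9% (7.67 to 14.9) in KO replicate 2 and 12.6% (9.10 to 16.8) in KO replicate 3. In the 3 libraries whose genotype field reads KO the share was lower, at 2.17% (0.264 to 7.63) in KO replicate 1, 2.01% (0.655 to 4.62) in WT replicate 2 and 5.21% (2.53 to 9.37) in WT replicate 3. The intervals of WT replicate 3 and KO replicate 2 overlapped. Cfd was steadier against Adipoq, with 60.6% in KO replicate 2 and 81.7% in WT replicate 3 as its extremes. Without molecular identifiers, these intervals and limits describe counting error alone.

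**Figure D2:**
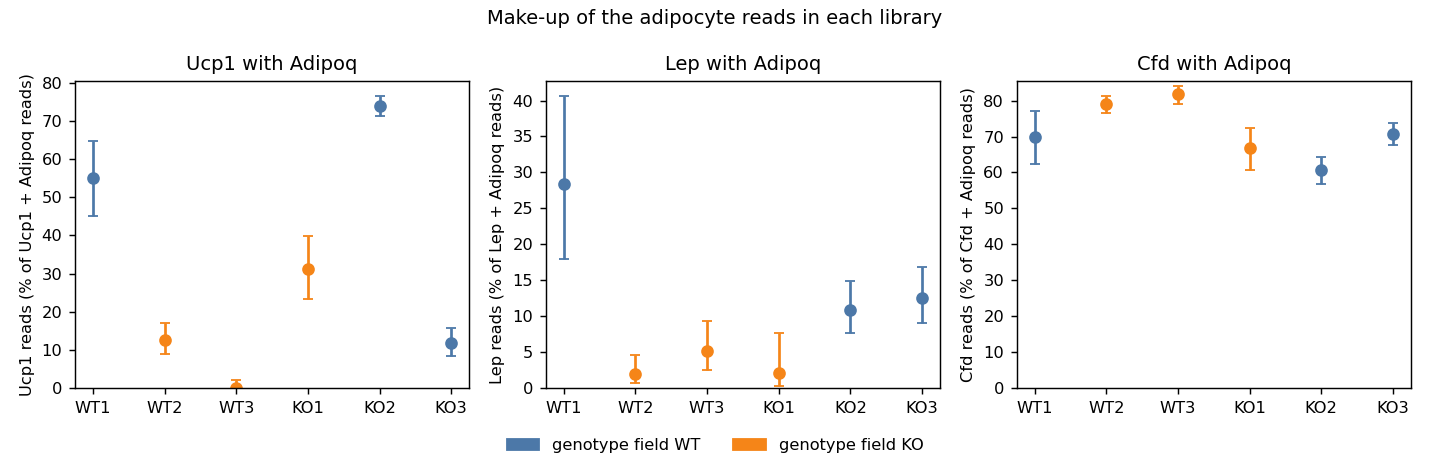
Reads of Ucp1, Lep and Cfd as a percentage of their sum with Adipoq reads in each library, with exact 95% binomial intervals, coloured by genotype field. The Ucp1 share ran from 0% in WT replicate 3 to 74.0% in KO replicate 2, and the Lep share was higher in the 3 libraries whose field reads WT.

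Differences between genotypes were tested over all 14708 genes with edgeR's quasi-likelihood test, two-sided, with Benjamini-Hochberg adjustment at 0.05. By library name, 0 genes (0.0%) passed, 219 (1.49%) had an unadjusted p under 0.05, and DESeq2 and limma-voom also called 0. By genotype field 2 genes (0.0136%) passed, 837 (5.69%) had an unadjusted p under 0.05, and with the replicate number as a block 51 (0.347%) passed. None of the 9 adipocyte genes tested passed in either comparison. In the Old series the libraries carry the same genotype in both labels, and in the numbered series the labels are opposite, so the numbered series alone gives the same fold with the sign turned.

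Ucp1 was at 2.16 ± 1.89 CPM in the WT and 20.5 ± 31.9 CPM in the KO libraries by name (SD, n = 3). Its log2 fold change, KO over WT, was 3.30 (SE 2.03, edgeR adjusted p = 0.99993) by name and -3.67 (SE 1.91, adjusted p = 0.908) by field. KO replicate 2 carried both values: without it the log2 fold change was -0.04 by name and -0.64 by field. The difference was smaller than the spread between replicates under either label.

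For Lep, the log2 fold change was 1.14 (SE 0.84, edgeR adjusted p = 0.99993) by name and -2.48 (SE 0.59, adjusted p = 0.606) by field, with means by field of 1.84 ± 0.665 CPM in WT and 0.324 ± 0.182 CPM in KO libraries. Lep was lower in all 3 libraries whose field reads KO, and the groups did not overlap. It was the one gene of the 10 for which this held by field, where 4.47% of tested genes were lower without overlap and 7.48% higher. By name it held for none of the 10, against 3.34% higher and 2.61% lower. With the replicate number as a block, edgeR's adjusted p for Lep by field was 0.0709, and over 13 fits it ranged from 0.0709 to 1.0. Adipoq was at 12.1 ± 8.69 CPM in WT and 11.2 ± 8.19 CPM in KO libraries by field.

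Neither label gave a difference past the threshold for the other 7 tested genes. By name the log2 fold change of Adipoq was 0.31 (SE 0.78), of Cidea 0.63 (SE 0.38), of Cidec 0.33 (SE 0.62), of Plin1 0.73 (SE 0.69) and of Pparg -0.13 (SE 0.27). Cfd was at -0.70 (SE 0.94) and Retn at -0.35 (SE 0.73), and edgeR's adjusted p was 0.99993 for each of the 7. By field Cidea was at -0.31 (SE 0.44), Cidec at -0.31 (SE 0.63), Plin1 at -0.76 (SE 0.69), Adipoq at -0.13 (SE 0.79) and Pparg at -0.33 (SE 0.25). Cfd was at 0.81 (SE 0.90) and Retn at 0.50 (SE 0.72) by field, with edgeR's adjusted p from 0.909 to 0.985 over these 7 genes. Of the 9 genes tested, 8 had opposite signs under the 2 labels, and Pparg had the same sign in both. The labels are opposite for 4 of the 6 libraries, so a turn of sign is largely built into the comparison. The share over all tested genes is not given, and the count is no result about these genes.

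**Figure D3:**
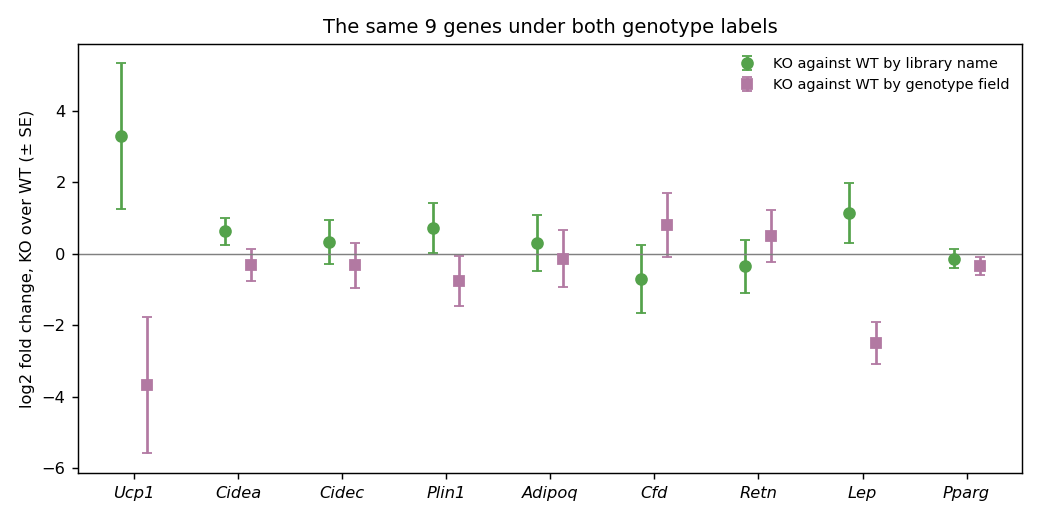
Log2 fold change, KO over WT, of the 9 tested genes with its standard error, by library name and by genotype field. The labels are opposite for 4 of the 6 libraries, and points stand on opposite sides of 0 for all genes except Pparg. The largest values, 3.30 and -3.67, belong to Ucp1.

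Further genes came from 11 lists of adipocyte genes, adipokine receptors, gene families and stromal genes, with 108 genes beside the 10. Many of the 108 are also made by other tissues, so their pooled directions are not those of adipocytes alone. Of these, 85 were tested and 8 had 0 reads in all libraries, among them Lipe, the hormone-sensitive lipase, and Hoxc8. No part of the gene body is free of other genes for 7 of these 8, Lipe, Agpat2, G0s2, Cpt1b, Hoxc8, Hoxc9 and Tcf21, and 12.7% is free for Hoxc10, so they are only listed at 0 and no level is given. By name 42 were higher and 43 lower in KO libraries, with a median log2 fold change of -0.00, against -0.02 over all genes tested, of which 45.5% were higher. By field 39 were higher and 46 lower, with a median of -0.04 against -0.01 over all genes, of which 48.1% were higher. None passed edgeR's test under either label.

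Many genes on these lists are also made by cardiac muscle and vessels. Lpl, the lipoprotein lipase, ran from 3414 to 4114 CPM and the fatty acid carrier Cd36 from 632 to 1008 CPM. Fabp4, the fatty acid binding protein of adipocytes and endothelium, was at 811 CPM in KO replicate 2 and 470 to 662 CPM in the other 5. Pck1 and Adig, both adipocyte genes, followed Adipoq closely, with Pck1 at 3.12 CPM in WT replicate 1 and 11.4 CPM or more in WT replicate 2 and KO replicates 2 and 3.

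Of the list of brown and thermogenic genes, 12 of 20 were tested. Of these, 5 were highest in WT replicate 1 and 4 in KO replicate 2, against 27.4% and 15.6% of all tested genes. Counted by direction, there were 5 higher and 7 lower by name (median -0.08) and 4 higher and 8 lower by field (median -0.07). Over all tested genes 45.5% were higher by name and 48.1% by field. Cox7a1 and Cox8b, subunits of cytochrome oxidase also found in heart muscle, ran from 459 to 860 CPM and from 216 to 513 CPM. Ppargc1a, the coactivator of mitochondrial growth, was lowest in KO replicate 2 at 40.4 CPM and highest in WT replicate 1 at 95.3 CPM. Dio2, the enzyme that activates thyroid hormone, was named after its values were seen and was highest in KO replicate 2, at 16.7 CPM against 5.33 to 8.07 CPM. Of the beige genes, Cited1 alone was tested, at 4.50 to 9.19 CPM. Of the white depot genes, 4 of 10 were tested, and Agt, Mest and Nnmt were at 4.25 to 31.8 CPM.

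The families of Ucp1, Cidea, Cidec and Plin1 hold members made in other tissues. Ucp2, an uncoupling protein of many tissues, ran from 525 CPM in KO replicate 2 to 667 CPM, and Ucp3, that of muscle, was lowest in KO replicate 2 at 15.2 CPM, against 18.0 to 26.9 CPM. The brain-type members Slc25a27 and Slc25a14 lay between 4.19 and 10.9 CPM. In the CIDE and perilipin families, Cideb stood at 1.01 to 2.90 CPM. Plin2, the perilipin of most cells, was highest in KO replicate 2 at 54.5 CPM against 34.4 to 45.4 CPM, while Plin4 was lowest there at 135 CPM against 171 to 235 CPM. Plin3 ran from 56.9 to 71.9 CPM, and Plin5, which coats droplets in heart muscle, from 21.0 to 33.4 CPM.

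Fatty acid synthesis genes, which brown and white adipocytes use to make triglyceride, stood highest in the library with the most Ucp1. Of the 11 genes, 10 were highest in KO replicate 2 and Mlxipl, a glucose-sensing factor, was highest in WT replicate 2, against 15.6% and 20.2% of all tested genes. The list was 9 higher and 2 lower by name (median 0.18) and 1 higher and 10 lower by field (median -0.26). Over all tested genes 45.5% were higher by name and 48.1% by field. Scd1, the stearoyl-CoA desaturase, was at 101, 101 and 65.6 CPM in WT replicates 1 to 3 and at 64.8, 566 and 84.1 CPM in KO replicates 1 to 3, so that KO replicate 2 was 5.60-fold above the next library. The Scd1 log2 fold change was 1.42 by name and -1.70 by field, and neither passed. Elovl6, an elongase of the same pathway, was at 14.7 CPM in KO replicate 2 and 2.16 to 5.30 CPM elsewhere. Me1, the malic enzyme, and Scd2 differed little, with 136 CPM against 102 to 128 CPM and 84.5 CPM against 56.5 to 79.6 CPM. Fasn, the fatty acid synthase, was named after its values were seen and was at 113 CPM against 24.6 to 43.2 CPM.

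**Figure D4:**
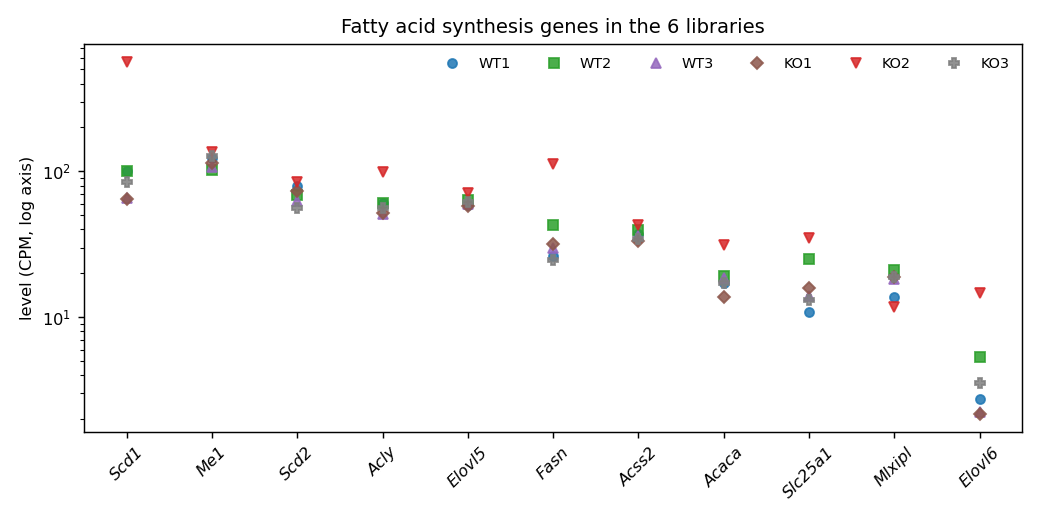
Level in CPM, on a log axis, of the 11 fatty acid synthesis genes, with 1 point per library. KO replicate 2 is the highest point for 10 of the 11 genes, with Scd1 at 566 CPM against at most 101 CPM in the others, and is not the highest for Mlxipl.

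None of the 11 adipogenic transcription factors passed edgeR's test. By name 3 were higher and 8 lower in KO libraries (median -0.21), where 45.5% of all tested genes were higher. By field 8 were higher and 3 lower (median 0.15), where 48.1% of all tested genes were higher. WT replicate 2 was the highest library for 7 of the 11, against 20.2% of all tested genes. Rxra, the partner of PPARG, ran from 46.7 to 64.8 CPM, Klf15 from 30.2 to 52.8 CPM and Nr1h3 from 28.3 to 44.5 CPM. Cebpb and Cebpd, early factors of adipocyte formation, were named after their values were seen. Cebpb was at 11.5, 19.6 and 19.6 CPM in WT replicates 1 to 3 and 9.25, 8.11 and 9.97 CPM in KO replicates 1 to 3, and Cebpd at 10.5, 15.6 and 14.8 CPM and 10.04, 9.27 and 8.26 CPM. Other annotated genes cover part of both, leaving 39.6% of the Cebpb body and 51.7% of the Cebpd body free. For both, the groups by name did not overlap, as for 2.61% of tested genes, with log2 fold changes of -0.89 and -0.57 and an edgeR adjusted p of 0.9999 each. The adiponectin receptors Adipor1 and Cdh13 ran from 243 to 309 CPM and from 290 to 379 CPM, and the insulin receptor Insr from 130 to 172 CPM. Of 7 preadipocyte and stromal genes, 1 was higher and 6 lower by name (median -0.06), and 3 were higher and 4 lower by field (median -0.08). The same shares of all tested genes, 45.5% by name and 48.1% by field, apply here. Pi16, Ly6a and Pdgfrb, which mark stromal progenitors, ran from 60.1 to 143 CPM, from 104 to 184 CPM and from 64.8 to 103 CPM.

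Markers of other cell types also differed between these libraries. Of the 8 tested genes of sympathetic and intrinsic neurons, 5 were highest in KO replicate 2, against 15.6% of all tested genes. The 10 genes of the list summed to 94.2 CPM there and to 45.9 to 64.6 CPM in the other 5 libraries. Stmn2, a neuronal tubulin regulator, was at 29.9 CPM in KO replicate 2 and 8.87 to 14.5 CPM elsewhere, and Dbh, which makes noradrenaline, ran from 19.9 to 38.2 CPM. B cell genes summed to 191 CPM in KO replicate 2 and to 76.1 to 120 CPM elsewhere, with Ighm at 171 CPM there. Macrophage genes summed to 511 CPM in WT replicate 2 and to 312 to 434 CPM elsewhere. Schwann cell genes, led by Pmp22 and Mbp, summed to 195 to 251 CPM, mesothelial genes, led by Upk3b and Msln, to 200 to 323 CPM, and endothelial genes, led by Pecam1 and Emcn, to 787 to 983 CPM. Ventricular genes summed to 149 CPM in KO replicate 2 and to 285 to 696 CPM elsewhere. Of the 3 tested, Myl2 passed edgeR's test by field (adjusted p = 0.00386), with a log2 fold change of 3.09. Myl3 at 1.20 (edgeR adjusted p = 0.213) and Myh7 at -0.30 (edgeR adjusted p = 0.958) did not pass. Other annotated genes cover part of Myl2 and Myh7, leaving 56.6% and 33.0% of their bodies free. Myl2 and Myl3 were named after their values were seen. The part of these cells in the adipocyte results was not tested. Skeletal muscle genes summed to 15.6 to 24.4 CPM. The fast myosins Myh1 and Myh4 were at 0 or at most 0.0489 CPM, while Tnnt3 was at 3.91 to 8.66 CPM and Pvalb at 4.19 to 7.56 CPM. Lung epithelial genes summed to 3.52 CPM in KO replicate 3, where Scgb1a1 was at 3.18 CPM, and to 0.307 to 0.672 CPM elsewhere, with Sftpc at most 0.0599 CPM.

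Genes whose profile over the 6 libraries was most like that of Adipoq were ranked among 13606 genes by the root mean square difference of centred log2 CPM. Among the 10 nearest were Cacnb4 (0.319), Pck1 (0.339), Vstm5 (0.352), Kif22 (0.358), Rpl35a-ps2 (0.396), Il21r (0.412), Il17d (0.415), Adig (0.422) and Car3 (0.442), against a value of 1.02 for a flat profile. Pck1, Adig and Car3 are known adipocyte genes. The nearest to Ucp1 ran from Rab3c (1.488) through Cdrt4os1, Gm31243, Gucy2c and Gdf6 to Scd1 (1.797), then Nefm, Prph, Vat1l and Gm5456 (1.849), against 2.60 for a flat profile. Nefm and Prph encode neuronal intermediate filaments. Libraries shared between genes carry the same depth and tissue make-up, so the ranking is a description of 6 libraries.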

How the data were processed

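RNA from 6 atrial samples was sequenced from TruSeq v2 libraries, which carry no strand. The deposited values are raw counts per Ensembl gene. The submitters' processing notes list HISAT2 2.1.0 and featureCounts 1.5.0-p3, the quality tools FastQC 0.11.5 and MultiQC 1.7, and the build GRCm38. For annotation and counting options, nothing is given in the sources used here. Symbols were found for 54723 of 54838 genes, and positions came from GENCODE M21.

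CPM used edgeR 4.0.16 (R 4.3.3) with TMM, whose factors ran from 0.946 to 1.03. Genes passing filterByExpr, 14708 in all, were tested with edgeR's robust quasi-likelihood test, 3 libraries against 3, under the genotype of the library name and under that of the genotype field. Each standard error was derived from F and the log2 fold change. The test was run on simulated data first. Alternatives used limma-voom (limma 3.58.1) and DESeq2 1.42.0. Intervals and limits are exact, at 95% (scipy 1.17.1), and folds over a count of 0 use the level of 3 counts.

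The 10 genes and all lists were chosen with earlier results of these data known. Beside them, the genes named are Prkce, the 3 genes with the highest mean CPM of each adipocyte list (all of a family), the 2 highest of each list of other cell types, and the 10 profiles nearest to Adipoq and to Ucp1 among genes with a mean of at least 1 CPM. Others are named as chosen after their values were seen, or as genes listed at or near 0. Pck1 and Adig come from the nearest profiles. 1 gene that this rule names is not reported here. Samples with the same replicate number deviated together, with correlations across genes of 0.157, 0.162 and 0.121 by library name and 0.269, 0.227 and 0.121 by genotype field. These values cannot show that the numbers pair the samples. Replicate 1 is also the Old series, and no correlation between samples of unlike number was taken. The labels do not give a pairing either. The main fits therefore took no block, and fits with the replicate number as a block are given beside them.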

Additional observations from a re-analysis of the deposited data

How the results depend on the processing

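No adipocyte gene of the 10 passed the adjusted p threshold in any fit that gave one; DESeq2 gave no adjusted p for Ucp1 by name, nor for Ucp1, Lep, Cidec, Plin1 and Retn by field. By library name, the genes called among all tested rose from 0 to 1 with no low-count filter, 3 in the numbered library series alone, 6 without WT replicate 2 and KO replicate 3, whose Prkce goes against the label, and 0 to 4 when single replicates were left out. By genotype field, the 2 genes called became 27 with DESeq2, 1 with limma-voom, 25 with no low-count filter, 51 (0.347%) with the replicate block and 0 to 2 when single replicates were left out. With the replicate block the count by library name was 0, and the block changed no call of an adipocyte gene. Of 251 fold changes of the adipocyte genes under alternatives, 224 kept their direction and 27 reversed, and with Y-linked level as covariate Ucp1 could not be fitted to a finite value by name. Reversed by name were Retn at 0.20 with limma-voom, 0.01 with the replicate block, 0.37 with the Y-linked covariate and 0.49 without the 2 libraries, and Pparg at 0.14 in the numbered series. By field, without KO replicate 2 and WT replicate 3, Adipoq was 0.62, Cidea 0.34, Cidec 0.20 and Plin1 0.16, and Prkce was 0.30 in the numbered series. With single replicates left out, values by name ran from -0.04 to 4.07 for Ucp1, -0.16 to 1.23 for Adipoq, -0.20 to 0.80 for Cidec, -0.19 to 1.20 for Plin1, -1.20 to 0.20 for Cfd, -0.81 to 0.90 for Retn and -0.44 to 0.14 for Pparg. By field they ran from -0.89 to 0.44 for Adipoq, -0.68 to 0.33 for Cidea, -0.76 to 0.23 for Cidec, -1.25 to 0.14 for Plin1, -0.02 to 1.27 for Cfd and -0.61 to 1.01 for Retn. Without KO replicate 2, Ucp1 (-0.04), Adipoq (-0.16), Cidec (-0.20) and Plin1 (-0.19) turned by name. The cause of these changes was not tested. Other scalings left the highest and lowest library of every adipocyte gene as they were. Depth limits Lep, Elovl3 and, outside KO replicate 2, Ucp1, which rest on 59 reads or fewer in a library. In WT replicate 1 and KO replicate 1 it also limits Retn (16 and 26 reads), Plin1 (41 and 40) and Cidec (51 and 58). The same holds for Adipoq in WT replicate 1 (48 reads) and for Retn in WT replicate 3 and KO replicate 2 (49 and 41 reads).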
